A study of Mus musculus with 12 samples.

Results

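The 6 arrays described here compared helper T cells that lacked Dgcr8 with wild-type helper T cells, both without any manipulation of miR-29. They were all 3 arrays labelled Dgcr8 KO control and all 3 labelled WT control, of 12 arrays in the series. All cells came from C57BL/6 mice aged 7 weeks. T cells were stimulated for 65 hours with antibodies to CD3 and CD28, then kept in IL-2 for 48 hours, electroporated on days 1 and 4 of culture, and lysed on day 5, 24 hours after the second electroporation. DGCR8-deficient cells received control miRNA and wild-type cells received control inhibitors. Genotype and control oligonucleotide therefore cannot be told apart in this comparison. Each array held the cells of 1 mouse, numbered 2, 3 and 4 within each genotype, and mice of equal number in the 2 genotypes were different animals. The Cre line or promoter behind the deletion, and what other alleles the mice carried, are not given in the sources used here. The other 6 arrays came from the same 6 mice, with miR-29b in the deficient cells and miR-29 inhibitors in the wild type. They entered only the estimate of spread and a side-by-side reading.

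Dgcr8 is the RNA-binding partner of the nuclease Drosha. Together they cut primary microRNA transcripts in the nucleus, Dicer then cuts the resulting hairpins, and one strand guides an Argonaute protein to messenger RNAs that match its seed. Cells without Dgcr8 lose nearly all microRNAs, and messengers that microRNAs hold down can rise. In CD4 T cells, microRNAs are known to restrain interferon gamma, the main cytokine of the Th1 type, and to sustain proliferation and survival.

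RNA was labelled with Cy3 and hybridised to Agilent arrays of the whole mouse genome. A level below is the log2 spot signal minus the 75th percentile of its array, and a change is the mean level in Dgcr8-deficient cells minus that in wild-type cells, as log2 ± SE with 3 arrays per genotype. Adjusted p-values come from limma with Benjamini-Hochberg adjustment over the 14705 genes tested, with 0.05 as the threshold. These p-values reflect how the mice varied, with both arrays of a mouse entered as independent. Rose and fell are used only for genes past that threshold. Between 28482 and 30809 probes were well above background on each of the 6 arrays and 0 spots were saturated. The number of arrays limits the precision.

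The genotypes differed in 3274 genes, or 22.3% of those tested. Of these, 1362 genes rose in Dgcr8-deficient cells (9.26% of genes tested) and 1912 fell (13.0%). At least a 2-fold change was reached by 983 of the higher and 1045 of the lower genes. The 3 arrays of one genotype lay wholly above or below the 3 of the other for 1357 of the higher and 1908 of the lower genes. Over all genes tested, 37.0% were separated in this way, 14.9% with the deficient arrays above and 22.1% with them below. The median change over all genes was -0.08. On the other 6 arrays from the same mice, 1314 of the 1362 and 1869 of the 1912 differed in the same direction. Within both slides and scan days that allowed it, 1361 and 1911 kept their direction. Where the arrays do not overlap this follows from the same values, so it is no separate check of batch. With slide as a block 6150 genes passed, 2402 higher and 3748 lower. Slide 2 held only deficient mouse 3 and slide 4 only wild-type mouse 4, so this block also takes up differences between mice. With only the 6 control arrays 2425 genes passed, and with the mean of both arrays of each mouse 2745. Such means mix in the arrays with miR-29b or inhibitors, so they form a different contrast. Leaving out wild-type mouse 4 lowered the count of falling genes to 1268.

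**Figure D1:**
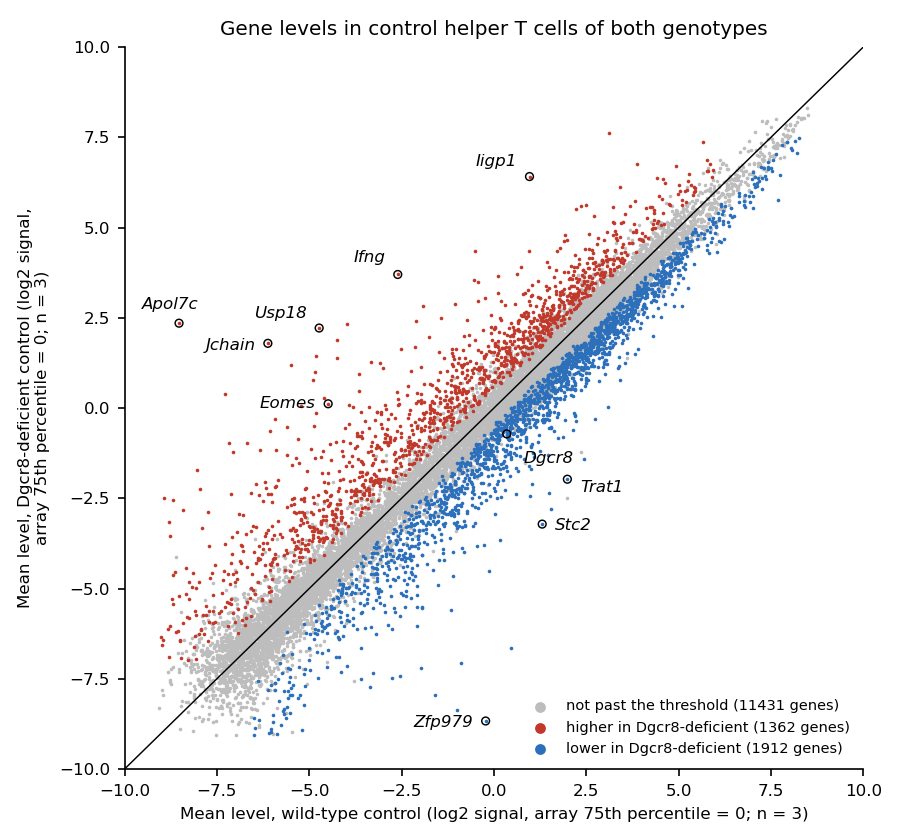
Mean level of each of the 14705 genes in wild-type control cells (x axis) and Dgcr8-deficient control cells (y axis), both as log2 signal with the array's 75th percentile at 0 and 3 arrays per mean. Red points are the 1362 genes that rose, blue points the 1912 that fell and grey points the rest; the line marks equal levels. Ifng, Usp18, Jchain and Apol7c lie far above the line, and Stc2 and Zfp979 far below it.

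Dgcr8 itself was measured by 1 probe, whose place relative to the deleted part is not given in the sources used here, so its level does not check the genotype labels. Its level was -0.75, -1.25 and -0.15 in Dgcr8-deficient mice 2, 3 and 4, and -0.16, 1.005 and 0.20 in wild-type mice 2, 3 and 4. The deficient arrays were the lower ones, but deficient mouse 4 and wild-type mouse 2 had nearly equal levels and crossed. The change of -1.06 ± 0.39 missed the threshold (adjusted p = 0.0754, limma). It passed with the mouse as a random block, with slide or scan day as a block, in the authors' log2 table and without deficient mouse 4. Slides 1 and 3 each held a control array of either genotype, and the differences there were -0.58 and -1.16.

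Among 8 genes of microRNA processing, 2 rose (25%, against 9.26% of all genes), 0 fell and 6 did not pass. Tarbp2, a partner of Dicer, rose by 1.31 ± 0.17 (adjusted p = 0.000362, limma). Its levels were 3.40, 3.03 and 3.09 in the deficient cells and 1.71, 2.08 and 1.80 in the wild type, with no overlap. Ddx17, a helicase of the Drosha complex, rose by 0.63 ± 0.17, and its second probe read 0.29. The Ddx17 call ended without deficient mouse 2 or 4 or wild-type mouse 2 or 4. Drosha changed by -0.27 ± 0.25 and Dicer1 by 0.68 ± 0.22, neither past the threshold (adjusted p = 0.530 and 0.0537, limma). Of 7 genes that carry out silencing, 28.6% rose, against 9.26% of all genes. These were Tnrc6b (1.18) and Tnrc6c (1.17), both scaffold partners of Argonaute. Both calls ended when deficient mouse 2 or 4 or wild-type mouse 2 or 4 was left out, and that of Tnrc6b also without wild-type mouse 3. The 4 Argonaute genes did not pass, with changes from -0.55 for Ago1 to 0.51 for Ago3.

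The cells' identity as CD4 T cells was read from their markers first. All 9 defining CD4 T cell markers (Cd3e, Cd3d, Cd3g, Cd247, Cd4, Cd5, Cd28, Lck, Zbtb7b) were well above background on all 6 arrays. Their summed linear signal, in units of the array's 75th percentile, ran from 266 to 307 in deficient cells and from 311 to 380 in the wild type, so the deficient arrays were slightly lower without overlap. Cd4 had levels of -0.37, -0.09 and 0.17 in deficient cells and -0.20, -0.38 and -0.20 in the wild type, which overlap. Of 15 genes of CD4 T cell identity, 6.67% rose and 13.3% fell, against 9.26% and 13.0% of all genes. Cd28, the costimulatory receptor, rose by 1.25 ± 0.40, while the kinase Lck fell by 0.67 and the adaptor Lat fell by 0.55. Each of these calls ended when any 1 of 5 of the 6 arrays was left out; the array that could be spared was that of deficient mouse 3 for Cd28, wild-type mouse 3 for Lck and wild-type mouse 2 for Lat.

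B cell markers stood apart between the genotypes. Of 12 tested, 9 rose (75%, against 9.26% of all genes) and 0 fell, with a median change of 2.26. Cd79b, a signalling chain of the B cell receptor, had levels of 1.31, 1.37 and 2.43 in deficient cells and -2.44, -2.24 and -1.70 in the wild type, a change of 3.83 ± 0.34 (adjusted p = 4.65e-05, limma). The deficient arrays were all higher, by more than the spread within either genotype. Ms4a1, which encodes CD20, rose by 5.86 ± 0.57. Jchain, the joining chain of secreted antibodies, had levels of 0.46, 3.16 and 1.75 in deficient cells and -6.14, -6.16 and -6.06 in the wild type. Its change of 7.91 ± 0.74 was the largest among genes well above background on all 6 arrays. Blnk, an adaptor of the B cell receptor, rose by 6.24 ± 0.53 and Mzb1, a chaperone of antibody-secreting cells, by 5.65 ± 0.46. Pax5, the factor that defines B cells, changed by 0.00 ± 0.36 and Cr2, a complement receptor of B cells, by -0.21 ± 0.40, neither past the threshold. The summed signal of the 5 defining B cell markers ran from 4.19 to 9.18 in deficient and from 0.346 to 0.498 in wild-type cells. In bulk RNA, a different number of cells of a type and a different amount of RNA per cell cannot be told apart. These markers moved with the genotype beside every gene group below, and their part in those changes was not tested.

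Markers of other cell types were read in the same way. The summed CD8 T cell markers ran from 0.455 to 0.733 in deficient and from 0.413 to 0.473 in wild-type cells, and 0 of the 2 defining genes tested passed. NK cell markers summed to 0.0789 to 0.208 and 0.0488 to 0.113, with 0 of the 3 defining genes tested past the threshold. On longer lists, 1 of 5 CD8 genes rose and 1 fell (20% each), as did 1 and 1 of 8 NK genes (12.5% each). Of all genes, 9.26% rose and 13.0% fell. Klrk1 (3.52) and Tyrobp (2.55) rose, while Klrd1 (-2.56) and Fcgr3 (-2.23) fell. The call of Klrk1 ended with another background correction. Those of Tyrobp and Fcgr3 ended without deficient mouse 4 or wild-type mouse 4, among other settings. Myeloid and dendritic markers summed to 0.162 to 0.294 and 0.139 to 0.178. Itgax, the integrin CD11c, was not well above background on any wild-type array, and Lyz1 on none of the 6. On the longer myeloid list of 10 genes, 4 rose (40%, against 9.26% of all genes) and Adgre1 fell by 2.72. Mpeg1, a pore-forming protein of macrophages and other immune cells, rose by 6.12 ± 0.34, from levels of -4.33, -4.28 and -4.14 to 2.18, 1.65 and 1.79. Csf1r, the receptor that marks macrophages, changed by -0.15 ± 0.24 and did not pass. The platelet genes Pf4 and Ppbp were not well above background in deficient mouse 2 and reached -0.27 and -1.88 in deficient mouse 4. Summed erythroid and platelet markers therefore ran from 0.101 to 1.24 in deficient cells and from 0.136 to 0.319 in the wild type. Of 4 markers of gamma-delta and NKT cells, only Sox13, a factor of gamma-delta T cells, was tested. Its linear signal ran from 0.00467 to 0.0184 in deficient cells and from 0.0740 to 0.102 in the wild type, and it fell by 3.05, with 2 of 3 deficient arrays well above background.

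One deficient mouse differed in sex-linked genes. The 4 Y-linked genes tested were well above background on 5 of the 6 arrays and not on that of deficient mouse 3. Ddx3y, for example, was at -8.76 there and between 0.62 and 2.33 on the others. The labels give no sex. Without both arrays of this mouse, 3017 genes passed, 1183 higher and 1834 lower.

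**Figure D2:**
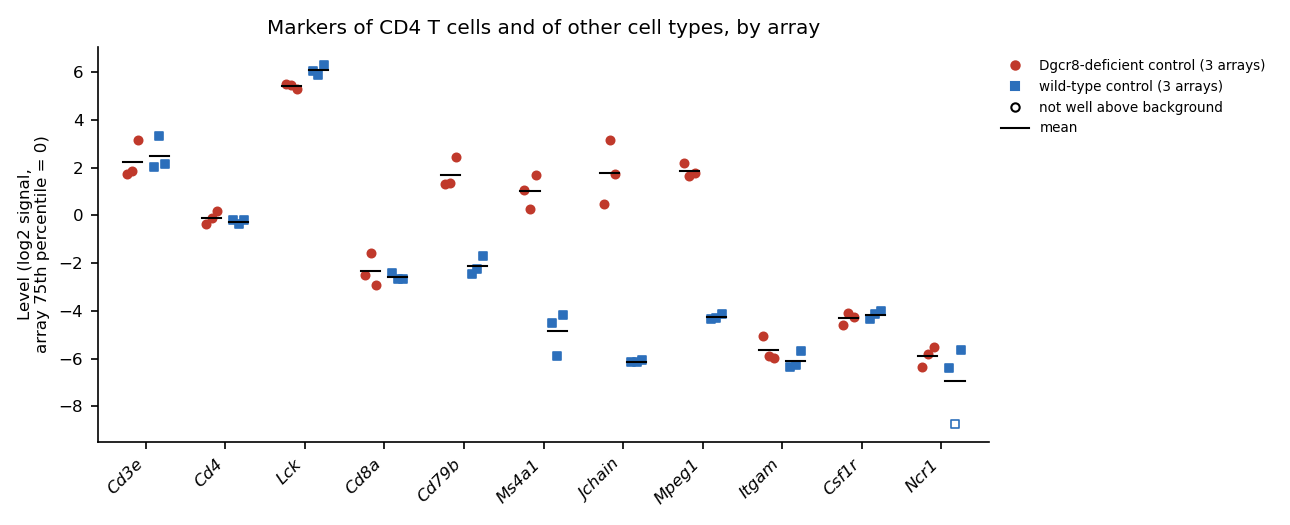
Level of 11 marker genes on each of the 6 control arrays (y axis, log2 signal with the array's 75th percentile at 0); red circles are Dgcr8-deficient, blue squares wild-type, open symbols were not well above background and bars are means of 3. Cd3e and Cd4 overlap between genotypes, whereas Cd79b, Ms4a1, Jchain and Mpeg1 are higher on every deficient array.

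Curated targets of T cell microRNAs were read next, in groups by seed. The mature microRNAs are shown because the loss of Dgcr8 is known to remove them, and because a target is defined by its match to the seed. Sequences are from RefSeq (GRCm38.p6), 5′ to 3′, with bases 2 to 8, the seed, in capitals. miR-17 and miR-20a share one seed, as do miR-29a and miR-29b.
mmu-miR-146a-5p: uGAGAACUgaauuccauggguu
mmu-miR-17-5p: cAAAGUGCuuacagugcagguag
mmu-miR-20a-5p: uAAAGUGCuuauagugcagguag
mmu-miR-155-5p: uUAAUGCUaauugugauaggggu
mmu-let-7a-5p: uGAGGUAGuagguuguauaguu
mmu-miR-29a-3p: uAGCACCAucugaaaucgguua
mmu-miR-29b-3p: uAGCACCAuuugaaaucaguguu

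Targets of miR-146, miR-17-92 and miR-155 included risers and no gene that fell. For miR-146, a brake on innate signalling, 3 of 6 targets rose and 0 fell, with a median of 0.88. Irak2, a kinase of Toll-like receptor signalling, had levels of 1.81, 1.94 and 2.21 in deficient and 0.39, 0.48 and 0.65 in wild-type cells, with no overlap. It rose by 1.48 ± 0.19 (adjusted p = 0.000346, limma), and Cxcr4, a chemokine receptor, by 1.63 ± 0.34. Traf6 and Irak1, the best-known targets of miR-146, did not pass, at -0.71 ± 0.28 and -0.45 ± 0.15. Both were lower on every deficient array than on any wild-type array, as were 22.1% of all genes. Irak1 passed as lower in 4 of the 21 alternatives.

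For the miR-17-92 cluster, which promotes lymphocyte growth, 5 of 12 targets rose and 0 fell, with a median of 0.70. The proapoptotic Bcl2l11 (Bim) rose by 1.52 ± 0.28 from levels of 2.25, 2.91 and 2.77 to 4.01, 4.05 and 4.42. Its second probe read 0.51 and did not pass. Cdkn1a, the cell-cycle inhibitor p21, rose by 1.29 ± 0.20 and Tgfbr2, the ligand-binding receptor of TGF-beta, by 1.45 ± 0.24 (1.08 on a second probe, not past). Phlpp2, a phosphatase that opposes Akt, rose by 0.91 ± 0.18, but its second probe read -0.03. E2f1, E2f2 and E2f3 did not pass. The mean of all kept probes in place of the brightest gave 3 risers.

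Of 15 targets of miR-155, 4 rose and 0 fell, with a median of 0.56. Maf, a factor that drives IL-4 and IL-21, was by far the most changed. Its levels ran from 3.44 to 3.91 in deficient cells and were -0.16, -0.19 and 0.66 in the wild type, a rise of 3.55 ± 0.26 (adjusted p = 1.41e-05, limma). Picalm, an adaptor of endocytosis, rose by 0.83 ± 0.16. Jarid2 (0.81) and Peli1 (0.59) also rose. The call of Jarid2 ended without any 1 array except that of deficient mouse 3, and that of Peli1 without any 1 except those of deficient mouse 4 and wild-type mouse 4. Without deficient mouse 2 or wild-type mouse 3, 2 members rose. With arrays scaled to their medians 1 rose, a share below that of all genes, and with another background correction the list's median was 0.033. Socs1, the inhibitor of cytokine signalling that miR-155 is known to repress, had levels of 6.52, 5.65 and 4.86 against 4.66, 4.79 and 4.52. These arrays did not overlap, but the change of 1.02 ± 0.49 did not pass (adjusted p = 0.174, limma).

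Only 1 of 14 let-7 targets rose, Arid3b (0.90 ± 0.14), and Nras fell by 0.69, in a list with a median of 0.58. The call of Nras ended without deficient mouse 4 or wild-type mouse 2 or 4, and 3 members rose without wild-type mouse 3. Fetal let-7 targets such as Hmga2 (0.49 ± 0.50), Igf2bp1 (0.40 ± 0.40) and Lin28b (-0.95 ± 0.76) did not pass.

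Of 29 miR-29 targets, 6 rose and 3 fell, with a median of 0.28. Ifng, Eomes, Bmf, Ccnd2, Bcl2l11 and Fbn1 rose. Fbn1, the matrix protein fibrillin, was not well above background on any wild-type array and was at least 15.2-fold higher in deficient cells, and it kept a rise of 3.55 on the arrays with miR-29b and inhibitors. Such a bound takes the lowest signal well above background for the dim group and leaves out sampling error. Bmf, a BH3-only killer protein, rose by 2.95 ± 0.45, though its second probe read 0.41. Ccnd2, cyclin D2, rose by 1.58 ± 0.26. Narf (-0.76), Ppic (-1.97) and Col1a1 (-2.03) fell, the last call ending without deficient mouse 2 or wild-type mouse 2 or 4. Col1a1 was well above background on 1 of 3 deficient arrays, and its other probes read 0.10 and -0.23. The DNA methyltransferases Dnmt3a and Dnmt3b, well-known miR-29 targets, changed by -0.11 ± 0.18 and 0.14 ± 0.20 and did not pass. Their groups overlapped. Dnmt3a has 3 kept probes, which read -0.33, 0.62 and -0.11, and the one at 0.62 passed.

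Among 26 targets of other T cell microRNAs, 8 rose and 0 fell, with a median of 0.28. They included cyclin D3 (Ccnd3, 1.96 ± 0.25), the transcription factors Irf4 (1.86 ± 0.37) and Myb (levels of 3.20, 2.09 and 3.17 against 1.15, 1.17 and 1.65), the antiproliferative Btg2 (1.83 ± 0.28) and the Polycomb gene Bmi1 (1.30 ± 0.21). Bcl2, Gata3 and Runx1 did not pass. Against 9.26% of all genes, 3 of 6 members rose for miR-146, and the share that rose was 41.7% for miR-17-92, 30.8% for other microRNAs, 26.7% for miR-155, 20.7% for miR-29 and 7.14% for let-7. These lists are short, share members such as Bcl2l11, and were curated from the literature on T cells.

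**Figure D3:**
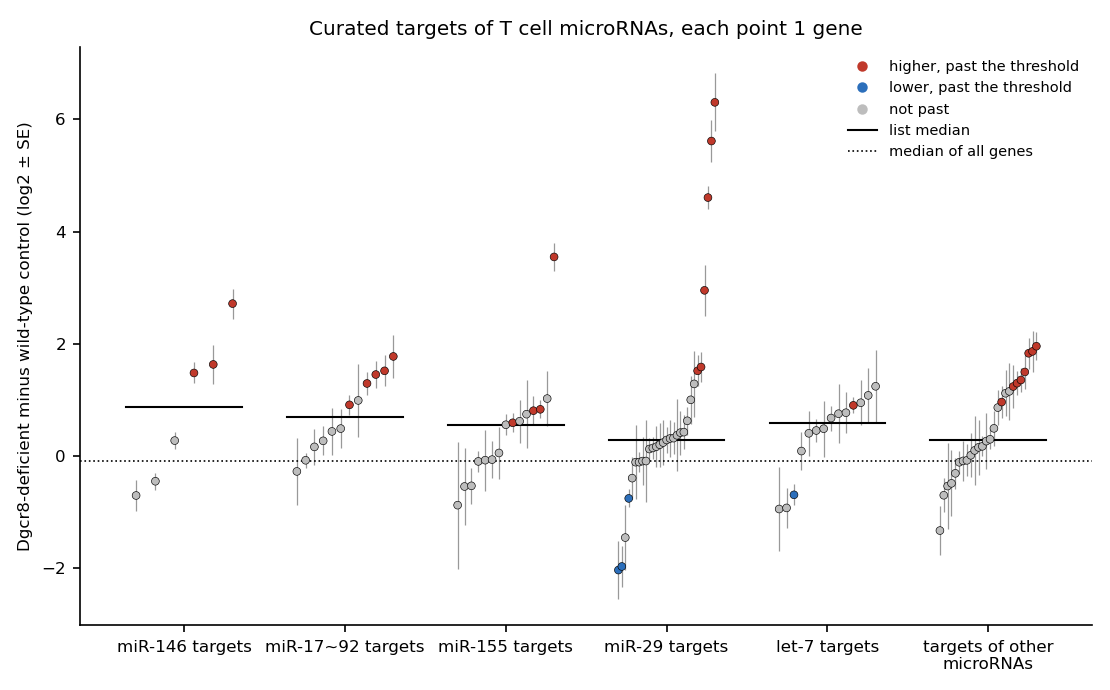
Change of each curated microRNA target (y axis, Dgcr8-deficient minus wild-type, log2 ± SE), grouped by microRNA; red points rose, blue points fell, grey points did not pass, bars are list medians and the dotted line is the median of all genes (-0.08). The medians run from 0.28 to 0.88, and the largest changes are Ifng, Fbn1 and Eomes among miR-29 targets.

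Interferon gamma was among the most raised messengers in Dgcr8-deficient cells. Ifng had levels of 4.59, 3.97 and 2.54 in deficient mice 2, 3 and 4, and of -2.27, -2.86 and -2.67 in wild-type mice 2, 3 and 4. The lowest deficient array was far above the highest wild-type array. The rise was 6.30 ± 0.52, or 78.9-fold (adjusted p = 2.91e-05, limma), and 6.86 and 5.40 within the slides that held both genotypes. On the other arrays of the same mice the difference was 2.85. Eomes, a T-box factor that activates Ifng, had levels of -0.13, 0.46 and 0.02 against -4.18, -4.68 and -4.60. It rose by 4.61 ± 0.21, or 24.3-fold (adjusted p = 1.31e-06, limma). Tbx21 (T-bet), the T-box factor that defines Th1 cells, had levels of 4.84, 5.06 and 3.83 against 3.66, 2.30 and 3.93. Its arrays overlapped and the change of 1.28 ± 0.58 did not pass (adjusted p = 0.155, limma).

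In all, 15 of 28 genes of the Th1 and cytotoxic program rose and 2 fell, with a median of 1.29. These shares were 53.6% and 7.14%, against 9.26% and 13.0% of all genes. Perforin (Prf1) rose by 4.01 ± 0.47 from -4.08, -3.80 and -3.87 to -0.46, 1.08 and -0.35. Hlx, a homeobox partner of T-bet, rose by 3.48 ± 0.69, and granzyme K (Gzmk), well above background on 2 of 3 wild-type arrays, by 4.22 ± 0.69. Its change ran from 1.82 to 4.78 across the alternatives. Receptors for the cytokines that promote Th1 cells rose too, with Il12rb2 at 2.24 ± 0.24, Il12rb1 at 1.29 ± 0.23 and Il18r1 at 2.36 ± 0.30. Of the inflammatory chemokines, Ccl4 rose by 2.74 ± 0.56. Ccl3 rose by 4.36 ± 0.55 but was well above background on 1 of 3 wild-type arrays, and its change ran from 1.65 to 4.91 across the alternatives. Granzymes A (0.49 ± 0.78) and B (0.24 ± 0.46), Tnf (0.20 ± 0.85) and Stat4 (0.35 ± 0.36) did not pass. Cxcr3, the chemokine receptor of Th1 cells, fell by 0.63 and Serpinb6b, a protease inhibitor, by 0.97. Serpinb6b did not pass without deficient mouse 2, and Cxcr3 did not pass with only the 6 control arrays, with quantile normalization or in the authors' log2 table.

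Receptors and signal carriers of interferon changed in part. Ifngr2, the signalling chain of the interferon gamma receptor, rose by 1.48 ± 0.28, while its partner Ifngr1 changed by -0.08 ± 0.55. Ifnar1, a chain of the type I interferon receptor, rose by 1.17 ± 0.16, while Ifnar2 changed by -0.25 ± 0.18. Over 18 cytokine receptors, 7 rose (38.9%, against 9.26% of all genes) and 0 fell. Risers included Il10ra (1.35 ± 0.21), which carries the IL-10 signal, and Il15ra (1.07 ± 0.23), which presents IL-15. Of 16 genes of the Jak, Stat and Socs families, 3 rose (18.8%, against 9.26% of all genes) and 0 fell. Stat2 (1.79 ± 0.35) and Socs3 (1.90 ± 0.26) were among those that rose. None of the 4 Janus kinases passed, with changes from -0.21 to 0.34.

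Genes that interferon gamma induces in many cell types rose almost as a block. Of 17 tested, 16 rose (94.1%, against 9.26% of all genes) and 0 fell, with a median of 2.63, and 16 rose in each of the 21 alternatives. Socs1 was the other gene. Iigp1, an immunity-related GTPase, had levels of 6.32, 6.22 and 6.70 in deficient cells and 1.04, 0.90 and 0.95 in the wild type. It rose by 5.45 ± 0.22, or 43.7-fold (adjusted p = 6.92e-07, limma). Gbp2, a guanylate-binding protein that coats pathogen vacuoles, rose by 4.52 ± 0.21, from 3.01, 3.22 and 3.08 to 7.58, 7.73 and 7.56. The replicates of each genotype lay close together. The other guanylate-binding proteins of the list rose by 2.31 (Gbp7) to 3.94 (Gbp5). The immunity-related GTPases Irgm2 (3.24 ± 0.20), Tgtp1 (2.88 ± 0.21), Irgm1 (2.63 ± 0.20) and Igtp (1.71 ± 0.15) rose as well. These families have close copies in the genome, so a change given for one member may include signal from another. The transcription factors Irf1 (1.77 ± 0.21) and Irf8 (1.78 ± 0.28) and the chemokine Cxcl10 (2.55 ± 0.51) completed the group, with Ciita below.

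Promoters of 5 of these GTPase genes are shown because the genes rose together and because each window holds a letter match to the element bound by interferon-regulated factors. The motifs searched on both strands of the 250 bases before each start were an interferon-stimulated response element, read as GAAA, any 2 bases and GAAA, and a gamma-activated site, TTCNNNGAA. Matches are in capitals in these 100-base windows, from RefSeq (GRCm38.p6), each 5′ to 3′ on the strand of its gene.
Gbp2, chr3:142620559-142620658, plus strand: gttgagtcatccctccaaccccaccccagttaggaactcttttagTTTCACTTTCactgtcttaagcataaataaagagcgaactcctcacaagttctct
Gbp3, chr3:142559944-142560043, plus strand: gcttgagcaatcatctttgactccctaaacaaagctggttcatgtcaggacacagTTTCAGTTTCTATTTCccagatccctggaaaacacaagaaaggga
Gbp5, chr3:142496724-142496823, plus strand: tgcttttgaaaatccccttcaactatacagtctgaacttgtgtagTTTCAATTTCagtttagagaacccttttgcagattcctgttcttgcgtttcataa
Irgm2, chr11:58214868-58214967, plus strand: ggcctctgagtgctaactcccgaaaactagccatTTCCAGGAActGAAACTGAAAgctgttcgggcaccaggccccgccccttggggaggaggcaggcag
Tgtp1, chr11:48992269-48992368, minus strand: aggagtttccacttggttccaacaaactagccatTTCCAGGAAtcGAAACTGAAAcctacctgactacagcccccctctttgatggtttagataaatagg

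In the Gbp genes the response element reads on the opposite strand, and in Gbp3 2 matches overlap. Irgm2 and Tgtp1 carry a gamma-activated site followed within a few bases by a response element. Of the 16 interferon gamma-induced genes that rose, 11 had a promoter in the RefSeq table. A response element was found in 9 of these and a gamma-activated site in 7. Of all 17 genes tested, 12 had a promoter there, and the counts were 10 and 7. A gene was counted if any of its promoters matched. Over the 11784 genes tested with a promoter the shares were 3.45% and 7.43%. Among 1072 such genes that rose, 6.25% held a response element and 8.96% a gamma-activated site. Among 1571 such genes that fell, the shares were 2.48% and 7.38%. Over all 32851 RefSeq promoters, counted singly rather than by gene, the shares were 2.98% and 7.02%. A letter match describes the sequence and does not show that a factor binds there.

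Genes best known as targets of type I interferon rose as well. Of 29 tested, 21 rose (72.4%, against 9.26% of all genes) and 0 fell, with a median of 1.67. Usp18, the protease that removes ISG15 and dampens the type I receptor, had levels of 2.63, 2.35 and 1.67 against -4.58, -5.15 and -4.45. Its rise of 6.95 ± 0.37, or 123-fold (adjusted p = 2.54e-06, limma), was the second largest among genes well above background on all 6 arrays. Oasl2, an antiviral protein of the oligoadenylate synthetase family, was not well above background on any wild-type array and was at least 49.4-fold higher in deficient cells. Irf9 (1.80 ± 0.19), the DNA-binding part of the factor that reads type I interferon, rose, as did Rtp4 (3.40 ± 0.52) and the RNA sensor Ifih1 (1.75 ± 0.21). Ifit1 (0.16 ± 0.40), Ifit2 (-0.62 ± 0.29), Ifit3 (0.68 ± 0.31), Oas3 (0.65 ± 0.30) and Isg20 (-0.29 ± 0.36) did not pass. The Ifit genes are classical type I interferon targets, and Ifit1 levels overlapped fully between genotypes. Across the 21 alternatives 17 to 24 members rose. A response element was found for 5 of the 15 members that rose and had a RefSeq promoter (33.3%). Of all members tested with a promoter, 8 of 23 had one (34.8%).

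**Figure D4:**
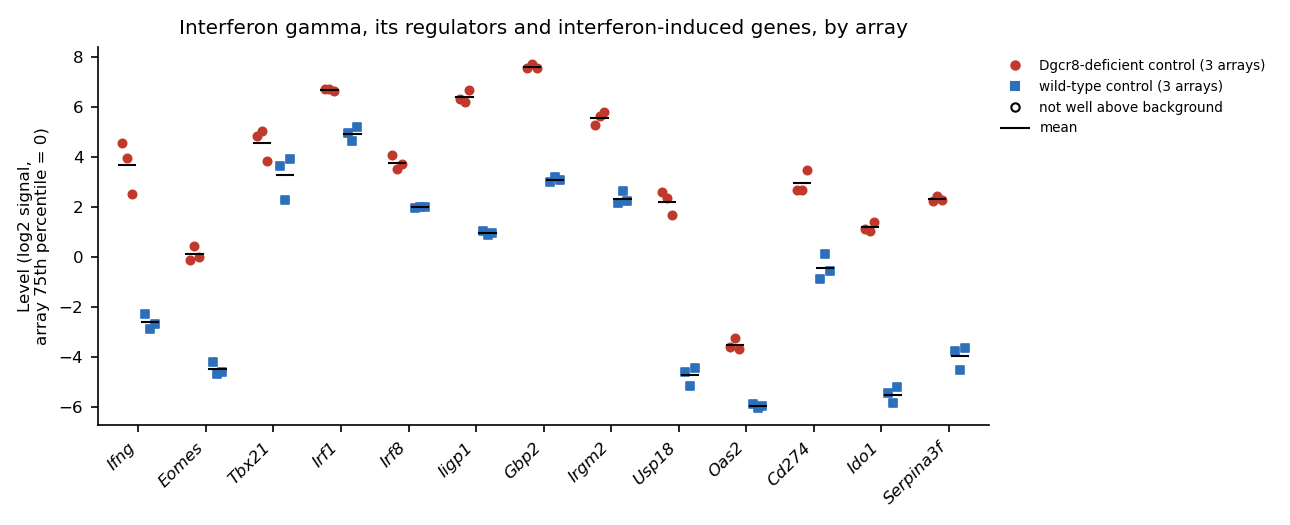
Level of Ifng, its regulators and interferon-induced genes on each of the 6 control arrays (y axis, log2 signal with the array's 75th percentile at 0); red circles are Dgcr8-deficient, blue squares wild-type and bars are means of 3. Each gene shown except Tbx21 is higher on every deficient array than on any wild-type array.

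Antigen presentation followed the same direction. Interferon gamma induces class II molecules through Ciita, and B cells and other antigen-presenting cells carry them at all times. Of 8 class II genes, 7 rose (87.5%, against 9.26% of all genes) and 0 fell, with a median of 1.87. H2-Aa rose by 5.08 ± 0.35, from -5.80, -5.45 and -5.58 to -0.53, -1.18 and 0.13. Cd74, the invariant chain, rose by 4.77 ± 0.35 and H2-Ab1 by 2.66 ± 0.27. Ciita, the master activator of class II genes, rose by 1.97 ± 0.28. H2-Ob, a modulator of peptide loading, was well above background on 2 of 3 wild-type arrays and rose by 1.76 ± 0.43, a call that ended with another background correction and in the authors' log2 table, while its partner H2-Oa changed by -0.11 ± 0.30. The defining B cell markers rose beside these genes, 4 of 5 past the threshold, and their part was not tested. For class I presentation, 7 of 14 genes rose (50%, against 9.26% of all genes) and 0 fell, with a median of 0.61. The loading factor Tapbp rose by 1.22 ± 0.18, and the immunoproteasome subunit Psmb10 had levels of 6.80, 6.87 and 6.93 against 5.54, 5.90 and 5.87. The peptide transporter Tap1 rose by 1.66 ± 0.46, a call that ended without deficient mouse 2 or 3 or wild-type mouse 3. Without deficient mouse 2, 4 members rose. The class I chains H2-K1 (0.29 ± 0.17) and H2-D1 (0.37 ± 0.28) and B2m (0.58 ± 0.50) did not pass.

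Other genes that interferon gamma is known to raise were among the most changed over the whole array. Ido1, an enzyme that consumes tryptophan, had levels of 1.12, 1.03 and 1.42 against -5.46, -5.84 and -5.22, a rise of 6.69 ± 0.35, or 103-fold (adjusted p = 2.34e-06, limma). Serpina3f, a protease inhibitor, rose by 6.30 ± 0.49. The checkpoint ligand PD-L1 (Cd274) rose by 3.38 ± 0.41, from -0.86, 0.14 and -0.57 to 2.68, 2.69 and 3.48. PD-L2 (Pdcd1lg2) rose by 2.63 ± 0.45. The inhibitory receptor Lag3 rose by 2.46 ± 0.65, a call that ended when deficient mouse 2 or 3 or wild-type mouse 2 or 3 was left out. Pdcd1, the receptor for both ligands, changed by -0.05 ± 0.39 and Ctla4 by 0.26 ± 0.29, neither past the threshold.

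**Figure D5:**
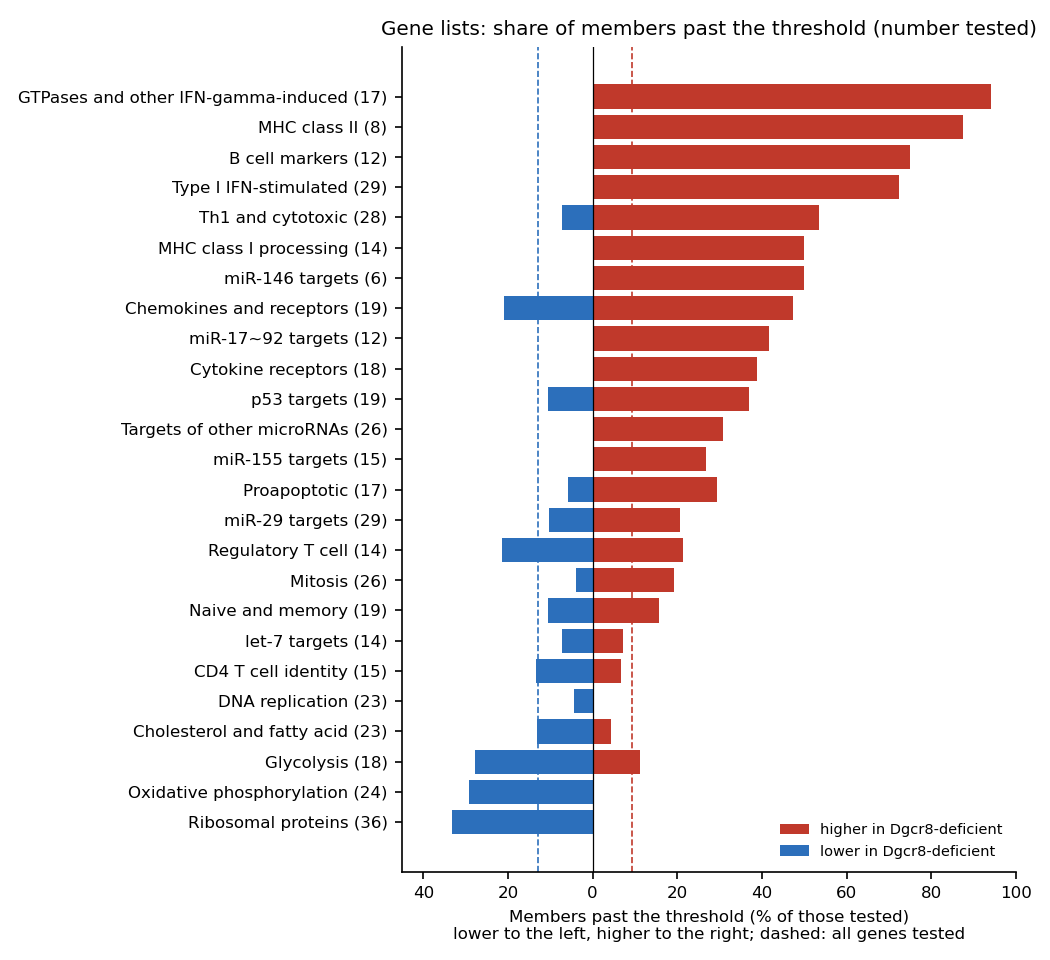
Share of the tested members of each gene list that rose (red, to the right) or fell (blue, to the left) in Dgcr8-deficient cells, in percent on the x axis, with the number tested in brackets; dashed lines mark 9.26% and 13.0%, the shares over all genes. Interferon-induced and class II genes lie at the top with 94.1% and 87.5% higher, and ribosomal proteins at the bottom with 33.3% lower.

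Other helper programs were read from their own lists. In the Th2 list of 14, 3 genes rose (21.4%, against 9.26% of all genes) and 2 fell (14.3%, against 13.0%). Only 1 rose when deficient mouse 2 or 3 or wild-type mouse 2 or 4 was left out. Il4 rose by 0.96 ± 0.29, with levels of 2.24, 1.50 and 1.28 against 0.82, 0.71 and 0.61. Its call ended without deficient mouse 2 or 3 or any 1 wild-type array. Gata3, the factor that defines Th2 cells, changed by 0.15 ± 0.49 and Il13 by 0.33 ± 0.28, and both overlapped. In the Th17 list, 4 of 9 rose (44.4%, against 9.26% of all genes), and 1 fell, a call that ended without any 1 array. The count that rose was 2 with another background correction, in the authors' log2 table and among genes well above background on all 6 arrays. Il21, a cytokine of follicular and Th17 cells, was not well above background in the wild type and was at least 3.39-fold higher in deficient cells, a call that ended with another background correction and in the authors' table.

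Genes of regulatory T cells went in both directions, with 3 of 14 rising and 3 falling. Each was 21.4%, against 9.26% of all genes that rose and 13.0% that fell. The 3 that fell included Foxp3, the factor that defines these cells. Its levels were -3.72, -3.82 and -3.66 in deficient cells and lay between -2.22 and -1.83 in the wild type, and it fell by 1.72 on the log2 scale (SE 0.17, adjusted p = 8.5e-05, limma). The genotypes did not overlap and the arrays within each were close. Izumo1r (folate receptor 4) fell by 2.34 and Gpr83, another gene enriched in these cells, by 2.57. Those that rose, Tnfrsf4 (1.25 ± 0.25), Il2ra and Tnfrsf18, are receptors that activated T cells also carry. Tnfrsf4 passed in all 21 alternatives. Il2ra and Tnfrsf18 did not pass without deficient mouse 2 or 3 or wild-type mouse 2 or 4, with only the 6 control arrays or with arrays scaled to their medians, and Tnfrsf18 also not without wild-type mouse 3. The count that fell was 3 in every alternative.

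Homing and memory genes also split. Ccr7, which guides cells to lymph nodes, rose by 1.35 ± 0.27. The inflammatory chemokine receptors Ccr2 and Cxcr6 fell by 3.41 and 2.65. Ccr2 levels were -3.09, -1.99 and -2.23 against 0.03, 1.82 and 1.07. Id3, an inhibitor of E proteins, fell by 3.04. Tcf7, Lef1 and Klf2 did not pass. Of 14 activation genes, 2 rose (14.3%, against 9.26% of all genes) and 2 fell (14.3%, against 13.0%), shares near those of all genes. Egr2 (1.51 ± 0.30) and Irf4 (1.86 ± 0.37) rose, and Cd40lg, the ligand by which T cells help B cells, fell by 0.96.

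Genes of p53 and of cell death rose in part. Of 19 p53 targets, 7 rose and 2 fell, with a median of 0.70, and 5 to 12 rose across the alternatives. Pmaip1 (Noxa), a killer protein of the Bcl-2 family, rose by 2.35 ± 0.27, from 0.92, 0.57 and 1.29 to 3.44, 3.62 and 2.78. Mdm2 (0.34 ± 0.22), Bax (0.16 ± 0.30) and Bbc3 (0.31 ± 0.33) did not pass. Over 17 proapoptotic genes, 5 rose (29.4%, against 9.26% of all genes), among them Bmf, Pmaip1, Bcl2l11 and Apaf1 (1.19 ± 0.18). Bid fell by 0.97 and did not pass without deficient mouse 2. Of 9 antiapoptotic genes, 0 passed in limma, with changes from -0.47 for Birc5 to 0.52 for Birc2. An unadjusted p under 0.05 (limma) was reached by 3 of the 9. It was also reached by 4851 of all 14705 genes tested, a similar share.

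Ribosomal protein genes were lower as a group. All 36 had a negative change, 12 fell (33.3%, against 13.0% of all genes) and 0 rose, with a median of -0.61. The median stayed negative in all 21 alternatives, from -0.70 to -0.26, while the count that fell ran from 8 to 30. Rpl14 fell most, by 1.68 ± 0.18, with levels of 1.04, 1.38 and 1.03 against 2.83, 2.66 and 3.00. The list's smallest changes were -0.08 for Rplp0 and -0.18 for Rplp1. Genes of the respiratory chain had a median of -0.41, with 7 of 24 lower (29.2%, against 13.0% of all genes) and 0 higher. The count that fell was 2 or 3 when deficient mouse 2 or 4 or wild-type mouse 3 or 4 was left out. Ndufb8, a subunit of complex I, fell by 0.99. In glycolysis 5 of 18 fell (27.8%, against 13.0% of all genes) and 2 rose (11.1%, against 9.26%). Without deficient mouse 4 or wild-type mouse 3 or 4, 3 fell. Slc2a3, a glucose transporter, fell by 2.25, with levels of 1.12, 1.64 and 0.60 against 3.15, 3.07 and 3.89, and the enzymes Aldoa and Pgk1 fell by 0.76 and 0.97. Pfkp, a phosphofructokinase, rose by 1.05 ± 0.16. In cholesterol and fatty acid synthesis 3 of 23 fell, the same 13.0% as over all genes, and 1 rose, with 7 falling without deficient mouse 2. Those that fell included Elovl6 (-1.58), which lengthens fatty acids, and the mevalonate kinase gene Mvk (-1.64).

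Of 23 DNA replication genes only Rrm2, a subunit of ribonucleotide reductase, passed, and it fell by 0.92. Of 26 mitotic genes, 5 rose (19.2%, against 9.26% of all genes), led by the spindle protein Prc1 (1.40 ± 0.13), and the centromere histone Cenpa fell by 0.95. The mitotic count that rose was 2 with arrays scaled to their medians and 12 with slide as a block. Mki67, the common marker of cycling cells, changed by -0.06 ± 0.21. Uhrf1, which maintains DNA methylation through replication, fell by 1.09. In the stress list the transcription factor Atf3 had levels of 2.05, 1.12 and 0.54 against -2.72, -3.62 and -2.91, a rise of 4.32 ± 0.42 (adjusted p = 7.26e-05, limma). Among 17 genes of TGF-beta signalling, 4 rose (23.5%, against 9.26% of all genes) and 0 fell. Zeb2, a repressor that is also a target of the miR-200 family, rose by 2.71 ± 0.28.

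Some large changes lay in genes not well above background in one genotype, for which only a bound is given. Apol7c, an apolipoprotein L family member, had levels of 1.54, 3.49 and 2.03 in deficient cells and was not well above background on any wild-type array, which gave at least a 545-fold difference. Ubd (FAT10), a ubiquitin-like protein induced by interferon gamma, was at least 141-fold higher and Gbp2b at least 45.6-fold. In the other direction, Zfp979, a zinc-finger gene, was not well above background on any deficient array and was at least 97.8-fold lower there, and Ifi202b, an interferon-inducible DNA sensor, at least 57.1-fold. Ifi202b had levels of -0.56, -0.27 and -2.18 in the wild type. Its direction was opposite to that of the interferon-induced genes that rose, and the cause was not tested. Of the called genes that both genotypes measured on every array, those that fell most were Stc2, a secreted glycoprotein (-4.52 ± 0.59), Hddc3 (-4.42 ± 0.28), Hc, which encodes complement C5 (-4.39 ± 0.31), Ramp1, a co-receptor for the neuropeptide CGRP (-4.33 ± 0.40), and Trat1, an adaptor of the T cell receptor (-3.96 ± 0.49). Trat1 levels were -2.94, -1.42 and -1.55 against 1.91, 2.33 and 1.73, well apart.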

How the data were processed

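The deposited scanner files hold spot intensities from Agilent Feature Extraction 10.5.1.1, per the file headers, which give the processed signal used here. A further table holds log2 values as deposited by the authors, whose limma version and scaling are not given in the sources used here. It served as an alternative. Signals were put on the log2 scale, each array's 75th percentile was subtracted, flagged outlier spots (104 to 197 on each control array) were dropped and spots of a probe were averaged. A probe was kept where 3 or more of the 12 arrays put it well above background. Of 41174 probes, 24844 matched 1 RefSeq symbol (GRCm38.p6) by accession, 0 matched several and 16330 none. The brightest kept probe stood for a gene, which gave 14705 genes, 4976 of them with over 1 kept probe.

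All 12 arrays, in 4 groups of 3, were fitted with limma 3.58.1 in R 4.3.3, with empirical Bayes moderation and Benjamini-Hochberg adjustment. The files give 4 slides and 2 scan days, each with arrays of both genotypes except slide 2 and slide 4. Both arrays of a mouse share a slide. Equal numbers in the 2 genotypes were different animals, and their control arrays had residual correlations of 0.24, -0.33 and -0.35 for mice 2, 3 and 4. Deficient mouse 4 and wild-type mouse 3, which shared a slide, had 0.54. The pair of mice 2 also shared one, and pairs on different slides ran from -0.39 to 0.25. Residuals within groups of 3 cannot show that pairing was absent, and the main fit held no term for slide. Simulated data held 14188 genes, 200 of them changed, with both arrays of a mouse correlated but fitted as independent. The same fit recovered 29 of 100 changes of 1 on the log2 scale and 62 of 100 changes of 2, with 14 false calls. The share changed there was far below the 22.3% called here, so these counts need not carry over.

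The members and the 45 gene lists were chosen with earlier results of these data known. Named genes were Dgcr8, Ifng, Tbx21, Eomes, Dnmt3a, Dnmt3b, Drosha and Dicer1; the 12 largest rises and falls among called genes that were well above background on all 6 arrays and did not overlap; the 5 highest bounds in each direction; and, per list, the 4 members of lowest p. Other list members were named after their values were seen, mostly to show which did not pass. A total of 21 alternatives were run. Results for some genes are not reported here.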

Additional observations from a re-analysis of the deposited data

How the results depend on the processing

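The count of called genes stayed within 1.5 times of 3274 in all alternatives but those with slide or scan day as a block. With slide as a block 6150 genes passed, 2402 higher and 3748 lower. With scan day as a block 5843 passed, 2283 higher and 3560 lower. Both blocks also take up differences between mice, since both arrays of a mouse share a slide and a scan day. The consensus correlation between both arrays of a mouse was 0.75, and with the mouse as a random block 3015 passed. Leaving out 1 control array gave 2371 to 2818 called genes, 980 to 1155 higher and 1268 to 1723 lower, the lowest count without wild-type mouse 4. With the replicate number as a block, a pairing that the labels do not support, 3285 passed. Dgcr8 passed at -1.06 with the mouse as a random block (adjusted p = 0.0460, limma), at -0.94 with slide as a block, at -1.06 with scan day as a block and at -1.04 in the authors' log2 table. Without 1 control array its change ran from -1.34 to -0.73. Of the 156 called genes among those chosen by rule, 116 stayed called under each alternative that tested them, 103 of them in all 21.

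Most reversed signs were in genes that did not pass. Among called list members, Il1r1 and Ebf1 reversed, and with the mean of kept probes 2 genes called in both analyses had opposite signs. With mouse means, Dnmt3b was at -1.06 and Tet2 at -0.24. Those means average each control array with the miR-29b or inhibitor array of its mouse, so they form a different contrast. With both arrays of deficient mouse 3 left out, Dnmt3b was at -0.012, Eif2s3y at 0.14, Uty at 0.23 and Ddx3y at 1.25. With slide as a block, Eif2s3y was at 0.15, Uty at 0.079 and Ddx3y at 1.103. Without 1 control array, Dnmt3b ran from -0.012 to 0.35, Eif2s3y from -5.50 to 0.14, Uty from -2.40 to 0.23 and Ddx3y from -4.29 to 1.25. With the other background correction, Il1r1 was at -0.018, Klrc1 at -0.33, Klra9 at -0.16, Klra8 at -0.041, Itga2b at -0.086 and Ebf1 at -0.058. With the mean of kept probes, Dnmt3a was at 0.059. The cause was not tested. The background correction and the rule on mouse 3 were chosen after seeing the data. Signals near background limit genes not measured in one genotype, for which bounds were given.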

Other observations

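Of 18 genes whose transcripts carry microRNAs, 2 rose (11.1%, against 9.26% of all genes) and 4 fell (22.2%, against 13.0%) in Dgcr8-deficient cells, with a median of 0.02. With single control arrays left out, 2 or 3 fell (2 without wild-type mouse 4 or deficient mouse 3), and 1 rose in each case except without deficient mouse 2, where 2 rose. Ppargc1b, a transcriptional coactivator that hosts miR-378, rose by 1.21 ± 0.19. Egfl7, a secreted protein that hosts miR-126, had levels of -2.54, -1.81 and -3.08 against 0.02, 0.14 and 0.10 and fell by 2.57. Copz1, a coatomer subunit, fell by 0.83.

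The endoplasmic reticulum chaperones Hspa5 (1.08 ± 0.20) and Dnajb9 (1.84 ± 0.36) rose together with Ddit3 (1.19 ± 0.18), a transcription factor of the unfolded protein response. In the same list of 21 stress genes, 6 rose (28.6%, against 9.26% of all genes) and 2 fell (9.52%, against 13.0%). Trib3, a pseudokinase induced by the same response, was among those that fell, at -1.11 ± 0.18. The B cell markers described above, Mzb1 among them, rose beside these genes, and their part was not tested.

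Around Dgcr8, 20 tested genes were read, the 10 nearest on each side in RefSeq order (GRCm38.p6). Prodh, proline dehydrogenase, rose by 2.68 ± 0.39. Tango2 and Arvcf, on the other side, fell by 0.88 and 2.03. Tango2 lacked a value on 1 of the 6 arrays.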
